A study of Mus musculus with 360 samples.

Results

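The genes described here are Sox9, Sox8, Sox5, Sox6, Sox4 and Sox11, chosen by name as the SOX factors of cartilage and of early skeletal mesenchyme, and they are 6 of the 24015 genes counted in the data. Their levels, the cells in which they were read, and the presence of Col2a1 reads in cells with and without Sox9 were compared across 4 skeletal tissues and 8 cell plates. The cells came from wild-type CD-1 mice at postnatal day 3, with no treatment, and were isolated from the tibial growth plate (GP) and from 3 cranial sutures, namely PF (posterior frontal), SAG (sagittal) and COR (coronal). All were double-sorted skeletal stem and progenitor cells, positive for CD51 and CD200 and negative for 6C3, CD105, Thy1.1, Thy1.2, Tie2, CD45 and Ter119. Each was a full-length single-cell RNA library. Tissue of many pups was combined and no label ties a cell to an animal, so each tissue was 1 sample, no test between tissues was possible, and the plates, 2 per tissue, gave the only spread within it.

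SOX proteins bind DNA through a shared domain, the HMG box, and fall into families by the similarity of that box. SOX9, of the SoxE family with SOX8, commits mesenchymal cells to cartilage and switches on Col2a1, which encodes type II collagen, and Acan, which encodes aggrecan. SOX5 and SOX6, of the SoxD family, lack an activation domain and strengthen the action of SOX9 at cartilage enhancers, whereas SOX4 and SOX11, of the SoxC family, are active in progenitor cells of many tissues, skeletal mesenchyme among them.

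The coding sequences of the 6 genes are shown for 1 stretch of 30 bases in the HMG box, because it codes for the same 10 residues in every one of the 6 and shows how the transcripts can still be told apart by sequence. Capitals mark the 7 positions at which the bases are not the same in all 6 genes.
Sox9: aaGcgAccCatgaaCgcCttCatggtGtgg
Sox8: aaGcgGccCatgaaTgcCttCatggtGtgg
Sox5: aaGcgTccAatgaaTgcCttCatggtGtgg
Sox6: aaGcgAccAatgaaTgcGttCatggtTtgg
Sox4: aaGcgGccCatgaaCgcCttTatggtGtgg
Sox11: aaAcgGccCatgaaCgcCttCatggtGtgg
All coordinates are those of mouse build mm9, the build the counts were made on, and each stretch lies in a coding exon of its gene. The stretch is at chr11:112644214-112644243 on the plus strand for Sox9, a gene of 3 exons. The other 5 lie on the minus strand, at chr17:25707141-25707170 for Sox8, chr6:143789767-143789796 for Sox5, chr7:122633250-122633279 for Sox6, chr13:29044684-29044713 for Sox4 and chr12:28027097-28027126 for Sox11. Over the coding bases of a window of 79 codons in the HMG box, identity was 85.2% between Sox9 and Sox8, 82.7% between Sox5 and Sox6, and 89.5% between Sox4 and Sox11. The longest run of bases shared by the transcripts used for any pair of the 6 genes was 48, between Sox4 and Sox11. This run is shorter than the 150-base reads. An exon of Sox5 overlaps an exon of the gene model 4933415D12Rik and one of Sox4 overlaps Gm17419, so the counts of Sox5 and Sox4 are uncertain to the extent that reads there could be assigned to either gene.

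Of the 360 cells deposited, 325 passed a minimum of 500 detected genes and 10000 reads and were kept, 87 from PF, 86 from SAG, 74 from COR and 78 from GP. Levels are given as CPM, that is counts per 1000000 reads other than those of Rn45s, the ribosomal RNA precursor gene, and the median cell had between 184673 (SAG) and 448803 (COR) such reads. SAG plate 2 stood apart from the other 7 plates, with 86.8% of its reads on Rn45s against 20.2% to 31% elsewhere and a median of 875 genes per cell against 2111.5 to 3867, so the SAG results that rest on it are also given by plate or without it. Well names recurred between tissues in 112 instances on plates of the same number, no cell was a copy of another, and the closest pair of cells correlated at 0.626. A read of at least 1 of 11 hindlimb Hox, Tbx4 and Pitx1 genes was present in 56 of 78 GP cells, in 1 of 87 PF cells and in no SAG or COR cell. Ihh, a marker of prehypertrophic cartilage, had no read in any GP cell. Reads of the sorted markers Itgav (CD51) and Cd200 were found in between 18.6% (Itgav, SAG) and 60.8% (Itgav, COR) of the cells of a tissue.

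Sox9 was read in every tissue and on all 8 plates, and it was highest in SAG. Its summed level was 2120 CPM in SAG (95% exact Poisson interval 2099 to 2142), 41.9 CPM in PF (39.6 to 44.3), 29.6 CPM in GP (27.6 to 31.7) and 13.3 CPM in COR (12 to 14.6). These intervals, and the exact Clopper-Pearson 95% intervals of shares given below, cover counting error only, since reads without molecular identifiers are not independent molecules. By plate, Sox9 stood at 124 CPM on SAG plate 1 and 3448 CPM on SAG plate 2, and at 15.9 and 48.2 CPM on PF plates 1 and 2. It stood at 33.8 and 28.7 CPM on GP plates 1 and 2, and 21.6 and 12.3 CPM on COR plates 1 and 2. Both SAG plates thus lay above the other 6, the PF plates overlapped those of GP and of COR, and both COR plates lay below both GP plates. On GP plate 1, however, 1 cell held 131 of the 167 Sox9 reads (78.4%), so that plate's place above the COR plates rested on this cell. A summed level cannot tell more cells with Sox9 from more Sox9 per cell, and the SAG cells differed in both.

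A Sox9 read was found in 63 of 86 SAG cells (73.3%, interval 62.6 to 82.2) and in GP in 32 of 78 (41%, 30.01 to 52.7). In COR the cells numbered 23 of 74 (31.1%, 20.8 to 42.9) and in PF 20 of 87 (23%, 14.6 to 33.2). The SAG plates had shares of 60% and 80.4%, and shares elsewhere ranged from 14.7% (PF plate 1) to 44.8% (GP plate 2). Cells were not equally deep, so each cell was also thinned to 100000 such reads. The 17 PF, 6 SAG, 3 COR and 11 GP cells below that depth were set aside. The shares of thinned cells with Sox9 were 71.3% in SAG, 35.8% in GP, 25.4% in COR and 24.3% in PF. Among cells with a read, Sox9 ran from 2.66 to 21111 CPM with a median of 1067 CPM in SAG, and the plate medians were far apart, at 236 CPM on plate 1 and 1989 CPM on plate 2. The other tissues had medians of 86.5 CPM in PF, 30.5 CPM in COR and 17.5 CPM in GP. The highest Sox9 level in any cell outside SAG was 584 CPM, in GP, and 42 of the 86 SAG cells exceeded it, of which 41 were on plate 2 and 1 was on plate 1. Ranked by CPM among the genes with reads on a plate, Sox9 was number 28 of 8787 on SAG plate 2, number 1385 of 11412 on SAG plate 1 and between numbers 3791 and 7994 on the other 6 plates.

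**Figure D1:**
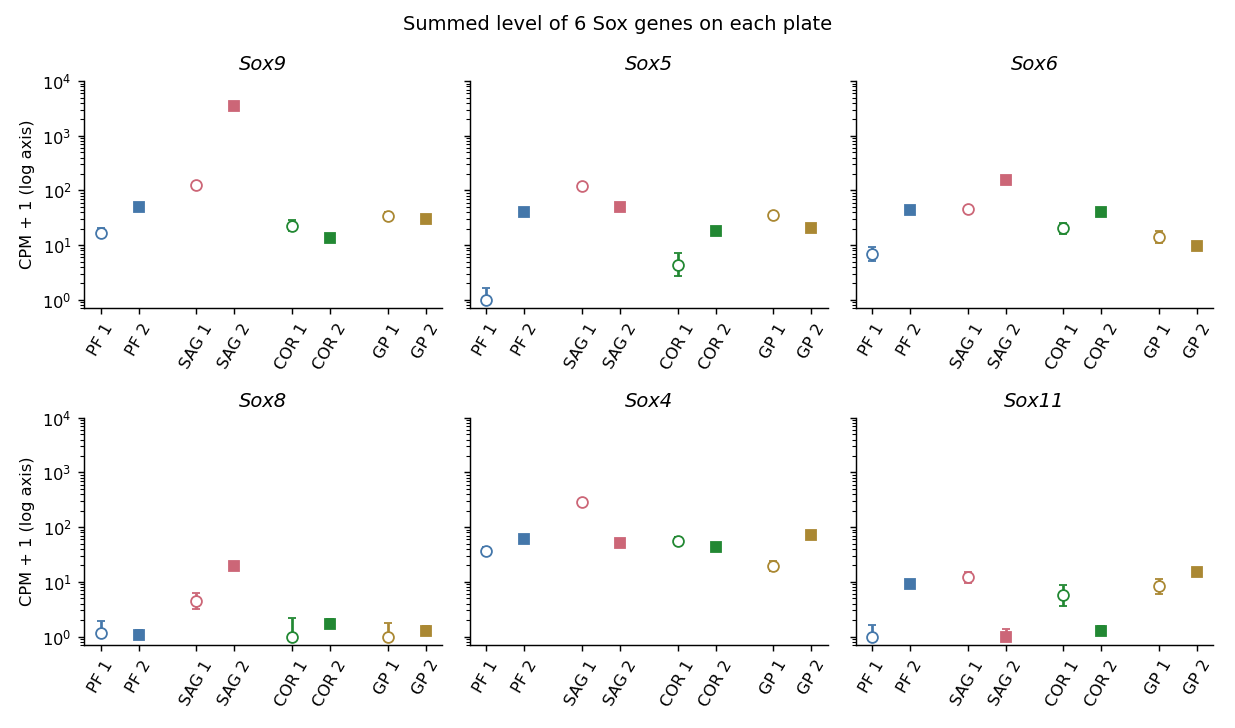
Summed level of the 6 Sox genes on each plate, as CPM + 1 on a log axis against plate, with open circles for plate 1, filled squares for plate 2 and bars for exact Poisson 95% intervals (counting error only, often smaller than the symbol). Sox9 stood at 124 and 3448 CPM on the SAG plates and at 12.3 to 48.2 CPM on the other 6, while a point at the value of 1 is a gene with no read on that plate.

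Tissues were compared by log2 ratios of summed CPM after adding 1 CPM. A gene was called where it differed at least 2-fold and all 4 plate-to-plate ratios had the same sign, among genes with at least 10 CPM in either tissue. Such a call is a rule of size and not a test. Where a plate was left out, only the plate-to-plate ratios that remained had to share a sign, so a call was then easier to reach. Of the 6 Sox genes, 5 passed the filter between PF and SAG, 4 between PF and COR, 5 between SAG and COR, 5 between PF and GP, all 6 between SAG and GP and 5 between COR and GP. Those that did not were Sox8, Sox11 or both. Sox9 was 49.5-fold higher in SAG than in PF, 149-fold higher than in COR and 69.3-fold higher than in GP. Across plates the log2 ratio of SAG over COR ran from 2.46 to 8.02, that of SAG over GP from 1.84 to 6.86 and that of PF over SAG from -7.67 to -1.34, so that all 3 ratios were called. Without SAG plate 2 the log2 ratios were 3.13 over COR and 2.02 over GP, and -1.54 for PF over SAG, smaller but still called. Sox9 in COR was also called lower than in GP, at a log2 ratio of -1.10 (plates -1.38 to -0.39). This call was lost without COR plate 2 (-0.44) and when the cell with the most Sox9 reads was left out of each tissue (-1.05), and with a pseudocount of 10 CPM (-0.77). PF and COR differed at a log2 ratio of 1.59 with plates on both sides of 0 (-0.42 to 1.88), which became a call without PF plate 1 (1.79) or without COR plate 1 (1.69). PF and GP differed at 0.49 (-1.04 to 0.73) with no call.

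Read against all genes, 4 of the 5 Sox genes that passed the filter were called lower in PF than in SAG (Sox9, Sox5, Sox6 and Sox8), where 13.2% of all genes were called lower and 16.9% higher. The same 4 were called higher in SAG than in COR and higher in SAG than in GP, where 13.5% and 13.3% of all genes were called higher and 18.9% and 18.3% lower. None of the 6 was called between PF and COR or between PF and GP, where 5.43% and 7.67% of genes were called higher in PF and 6.36% and 8.73% lower. Between COR and GP, Sox6 was called higher in COR, as 6.33% of genes were, and Sox9 and Sox11 lower, as 7.09% of genes were. These 6 comparisons share tissues, so the SAG calls are not separate pieces of evidence. They also depended on the scaling and on SAG plate 2. The share of all genes called was not computed for totals with Rn45s or without SAG plate 2. With Rn45s counted in the totals, the median of all genes moved by 1.71 on the log2 scale between PF and SAG. The log2 ratios of PF over SAG became 0.57 for Sox5 and 0.23 for Sox6, no longer calls and of the opposite sign. Those of SAG over COR became 0.35 for Sox5 and -0.28 for Sox6, and that of SAG over GP became -0.042 for Sox5, again without a call, while Sox9 kept its calls in all 3 SAG comparisons. Without SAG plate 2, Sox6 and Sox8 were no longer called between PF and SAG and Sox4 was, Sox4 and Sox11 took the place of Sox6 and Sox8 between SAG and COR, and Sox4 took the place of Sox8 between SAG and GP.

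Sox8, the SoxE relative of Sox9, was almost absent. It had 3 reads in 2 PF cells, 212 reads in 2 SAG cells, 21 reads in 1 COR cell and 6 reads in 1 GP cell. Of the SAG reads, 188 came from 1 cell of plate 2 and 24 from 1 cell of plate 1. Its SAG calls rested on these 2 cells, and they ended when the cell with the most Sox8 reads was left out of each tissue. Sox9 was read in 1 of the 2 SAG cells with Sox8, in the COR cell, and in neither the PF cells nor the GP cell.

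Sox5 and Sox6, the SoxD partners of SOX9, were each read in a minority of the cells of every tissue. Sox5 stood at 76.5 CPM in SAG (118 on plate 1 and 48.7 on plate 2), 31.3 CPM in PF (no read on plate 1 and 38.9 on plate 2), 22.4 CPM in GP (34.2 and 19.9) and 15.8 CPM in COR (3.4 and 17.2). Its cells numbered 20 of 86 in SAG (23.3%), 11 of 78 in GP (14.1%), 8 of 74 in COR (10.8%) and 5 of 87 in PF (5.75%), and 1 PF cell held 58.9% of the PF reads. The 34 cells of PF plate 1 allow a share of up to 8.82% for a count of 0. Both SAG plates lay above the plates of the other tissues, by a log2 ratio of 2.21 over COR (plates 1.45 to 4.76), 1.73 over GP (0.50 to 2.51) and, for PF over SAG, -1.26 (-6.90 to -0.31). Of these, the PF call was lost without PF plate 1 (-0.96) or without SAG plate 1 (-0.62), and the call against GP was lost when the cell with the most Sox5 reads was left out of each tissue, although the log2 ratio was then 2.21. The log2 ratio of PF over COR was called lower without PF plate 2 (-4.07) and higher without PF plate 1 (1.25). That of PF over GP was called lower without PF plate 2 (-4.55), and that of COR over GP called lower without COR plate 2 (-2.41) or GP plate 2 (-1.07).

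Sox6 stood at 113 CPM in SAG (45.4 on plate 1 and 157 on plate 2), 37.1 CPM in COR (19.5 and 39.1), 35.8 CPM in PF (5.92 and 43.1) and 9.52 CPM in GP (13.2 and 8.75). SAG plate 1 lay within 0.07 of PF plate 2 on the log2 scale, so the highest level was clear only on SAG plate 2. By share of cells COR was the highest instead, with 24 of 74 cells (32.4%, 22 to 44.3), followed by SAG with 24 of 86 (27.9%, 18.8 to 38.6). The intervals of COR and SAG overlapped, and GP had 11 of 78 (14.1%) and PF 11 of 87 (12.6%). Sox6 was called higher in COR than in GP, by a log2 ratio of 1.86 (plates 0.53 to 2.04), with 0.96 and no call without COR plate 2. Sox6 was lower in PF than in SAG at a log2 ratio of -1.63 (-4.52 to -0.07) and higher in SAG than in COR at 1.58 (0.21 to 2.95) and than in GP at 3.43 (1.71 to 4.02). Without SAG plate 2, the first and second of these were -0.33 and 0.28 and were not called. The log2 ratio of PF over COR was called lower without PF plate 2 (-2.46) and that of PF over GP higher without PF plate 1 (2.07).

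**Figure D2:**
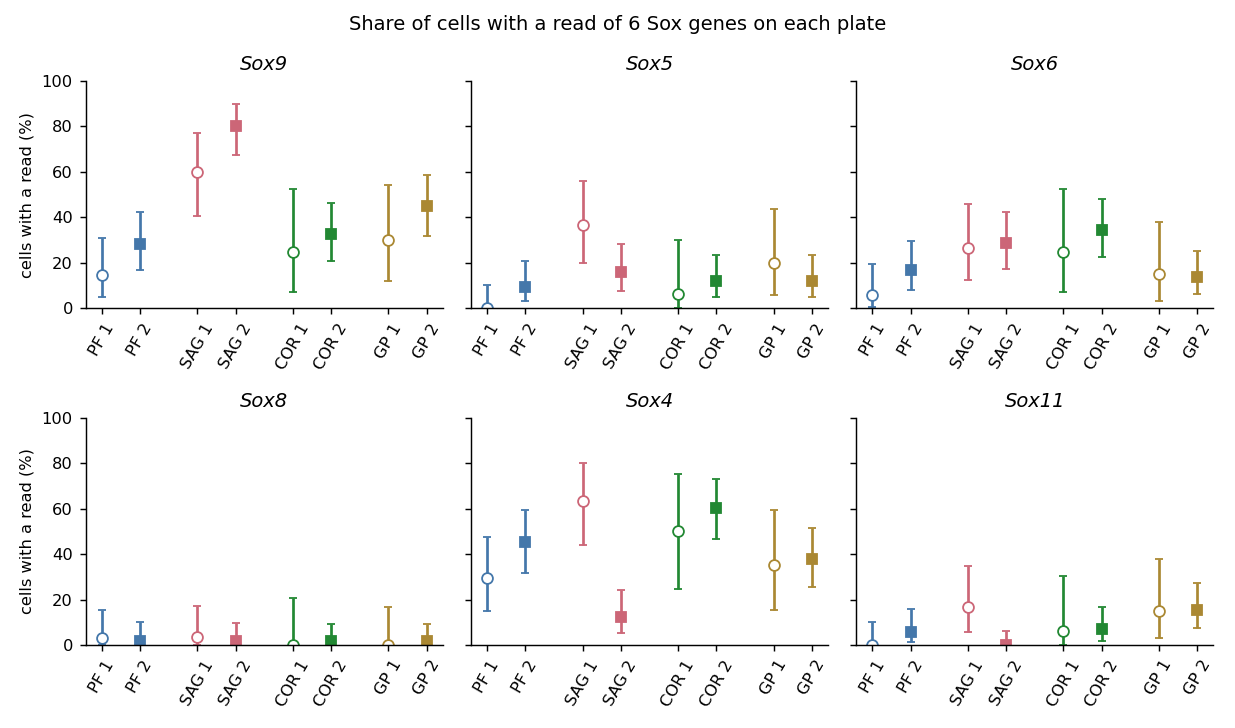
Share of cells with at least 1 read of each of the 6 Sox genes on each plate, in percent, with open circles for plate 1, filled squares for plate 2 and bars for exact binomial 95% intervals. Sox9 was read in 60% and 80.4% of cells on the SAG plates, Sox4 in 63.3% of cells on SAG plate 1 and 12.5% on SAG plate 2, and Sox8 in at most 1 cell of any plate.

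The SoxC genes had another distribution. Sox4 was read in 43 of 74 COR cells (58.1%, 46.1 to 69.5), 34 of 87 PF cells (39.1%, 28.8 to 50.1), 29 of 78 GP cells (37.2%, 26.5 to 48.9) and 26 of 86 SAG cells (30.2%, 20.8 to 41.1). In SAG these cells were unequally placed, 19 of 30 on plate 1 (63.3%) and 7 of 56 on plate 2 (12.5%). Its summed level was 146 CPM in SAG (291 on plate 1 and 49.5 on plate 2), 62.4 CPM in GP (18.4 and 71.6), 55.1 CPM in PF (36.3 and 59.6) and 43.6 CPM in COR (55.9 and 42.2). SAG plate 1 was thus the highest of the 8 plates and SAG plate 2 lay among the rest, and no Sox4 difference between tissues was called. Without SAG plate 2, Sox4 was called higher in SAG than in PF (log2 ratio of PF over SAG -2.38), than in COR (2.71) and than in GP (2.20). The difference from PF was also called without PF plate 2 (-1.98), that from COR without COR plate 1 (1.77) and that from GP without GP plate 2 (2.92). Without GP plate 2, Sox4 was also called higher in PF (1.53) and in COR (1.20) than in GP.

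Sox11 was read in 12 of 78 GP cells (15.4%, 8.21 to 25.3), 5 of 74 COR cells (6.76%), 5 of 86 SAG cells (5.81%) and 3 of 87 PF cells (3.45%). It reached 12.8 CPM in GP (7.29 on plate 1 and 14 on plate 2) and 6.47 CPM in PF (no read on plate 1 and 8.04 on plate 2). It stood at 4.42 CPM in SAG (11.1 on plate 1 and no read on plate 2) and 0.718 CPM in COR (4.63 and 0.278). GP was the only tissue above 10 CPM. The log2 ratio of COR over GP was -3.01 (plates -3.55 to -0.56), a call that was lost without GP plate 2 (-2.27, GP then lying under 10 CPM). It was also lost with Rn45s counted in the totals (-2.70) and when the cell with the most Sox11 reads was left out of each tissue (-2.94). On SAG plate 2 no read in 56 cells allows a share of up to 5.36%. The plates of the sutures ranged from 0 to 11.1 CPM and overlapped. Sox11 was called higher in SAG than in COR without SAG plate 2 (2.81) and lower in PF than in GP without PF plate 2 (-3.79) or GP plate 1 (-1.004). It was called lower in SAG than in GP without SAG plate 1 (-3.79) or GP plate 1 (-1.47). Of the 2 SoxC target genes listed, Tead2, which encodes a Hippo pathway factor, stood between 7.79 CPM (SAG) and 18.9 CPM (COR). Tead2 was called higher in PF than in SAG (log2 ratio 1.05), with 0.81 and no call without SAG plate 2 and 0.82 and no call with TMM factors. Tubb3, a neuronal tubulin, was read in at most 2 cells of a tissue.

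Sox9 and Col2a1 met in the same cells in SAG and hardly ever in PF or COR. Col2a1 was read in 48 of the 63 SAG cells with Sox9 (76.2%, 63.8 to 86) and in 8 of the 23 without (34.8%, 16.4 to 57.3). In GP it was read in 9 of 32 cells with Sox9 (28.1%, 13.7 to 46.7) and in 12 of 46 without (26.1%, 14.3 to 41.1). In PF the cells were 1 of 20 (5%, 0.127 to 24.9) and 7 of 67 (10.4%, 4.30 to 20.3), and in COR 1 of 23 (4.35%, 0.110 to 21.9) and 2 of 51 (3.92%, 0.478 to 13.5). The intervals of cells with and without Sox9 were apart in SAG and overlapped in the other 3 tissues.

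By plate, Col2a1 was read in 15 of 18 cells with Sox9 (83.3%) and 7 of 12 without (58.3%) on SAG plate 1, where the intervals overlapped, and in 33 of 45 (73.3%, 58.1 to 85.4) and 1 of 11 (9.09%, 0.230 to 41.3) on SAG plate 2. The share was thus higher in cells with Sox9 on both SAG plates, by 25 and 64.2 percentage points. On GP plate 1 none of 6 cells with Sox9 and 3 of 14 without had Col2a1, and on GP plate 2 it was read in 9 of 26 and 9 of 32. In PF the single cell with both was on plate 2, where 6 of 38 cells without Sox9 had Col2a1, and on plate 1 the counts were 0 of 5 and 1 of 29. In COR the cell with both was also on plate 2, with 1 of 19 against 1 of 39, and on plate 1 the counts were 0 of 4 and 1 of 12.

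Depth moved with Sox9 detection and its part in these shares was not tested. The median depth without Rn45s was 186241 reads in SAG cells with Sox9 against 168363 in those without, 511359 against 219047 in GP, 434417 against 282483 in PF and 468923 against 427710 in COR. After thinning to 100000 reads, Col2a1 was read in 71.9% of SAG cells with Sox9 and 39.1% of those without, and in 29.2% and 25.6% of GP cells. Requiring 10 reads of each gene gave 70.9% and 48.4% in SAG. The SAG shares were thus closer under both settings than the 76.2% and 34.8% of all kept cells. No intervals were computed for them, so they do not show whether the SAG intervals would still be apart.

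**Figure D3:**
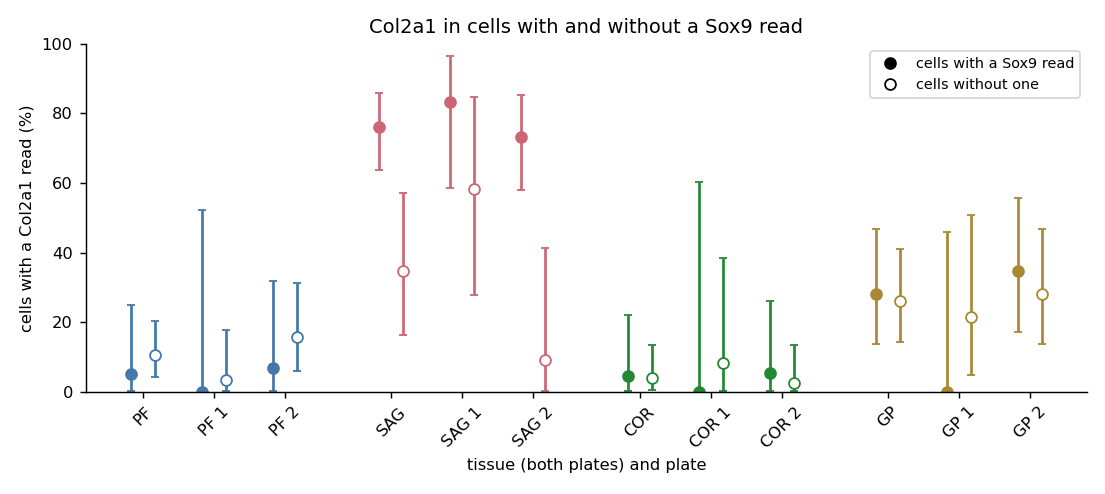
Share of cells with a Col2a1 read, in percent, among cells with a Sox9 read (filled) and cells without one (open), for each tissue and each of its plates, with exact binomial 95% intervals. The SAG pair stands at 76.2% and 34.8%, the GP pair at 28.1% and 26.1%, and the PF and COR values lie between 0 and 15.8%.

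Seen from the Col2a1 side, Sox9 was read in 85.7% of the SAG cells with Col2a1, 42.9% of those in GP, 12.5% in PF and 33.3% in COR, the last from 3 cells. Cells with Sox9 held 97% of all Col2a1 reads in SAG and 73.6% in GP. In GP this rested on 1 cell of plate 2, which carried 62.8% of the GP Col2a1 reads at 48224 CPM of Col2a1 beside 11.5 CPM of Sox9. The cells next in rank, at 30532 and 11899 CPM of Col2a1, had no Sox9 read. In COR 97% of the Col2a1 reads came from 1 cell with 64 reads, which had Sox9, and in PF cells with Sox9 held 7.23%. Among the SAG cells with both genes the median was 1112 CPM for Sox9 and 4785 CPM for Col2a1, and the 15 SAG cells with Sox9 but no Col2a1 read had a median of 979 CPM of Sox9. On plate 1 these medians were 221, 4970 and 317 CPM, and on plate 2 they were 2733, 4620 and 1067 CPM, so that Sox9 was the higher in cells with Col2a1 on plate 2 and the lower on plate 1. Over all 56 cells of SAG plate 2 the Spearman correlation of the levels was 0.59, over 30 cells of SAG plate 1 it was 0.31 and over 78 GP cells 0.01. These are descriptions over cells that share a plate and differ in depth.

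**Figure D4:**
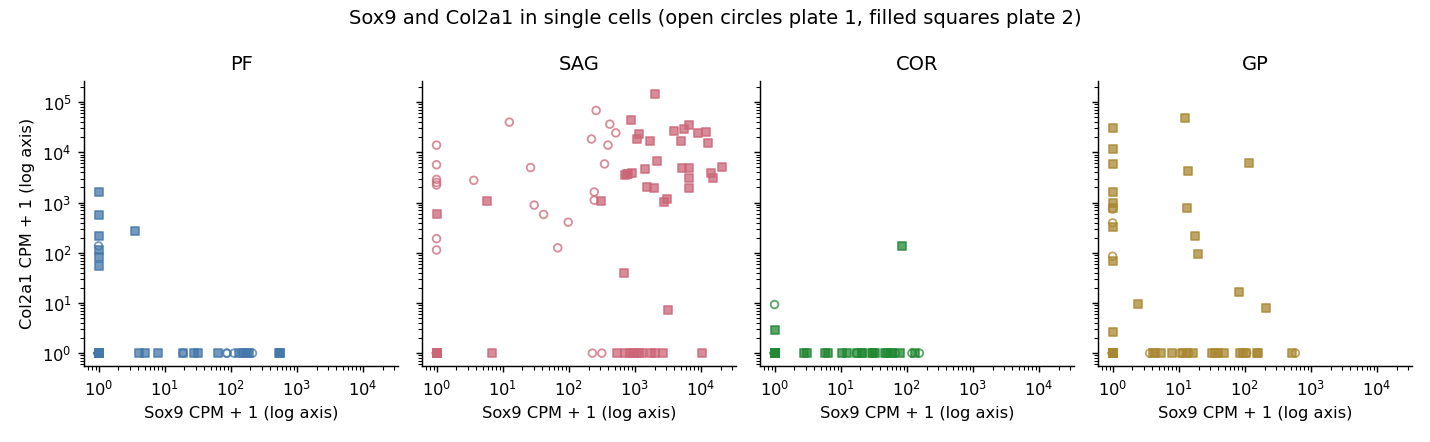
Col2a1 level against Sox9 level in each kept cell of the 4 tissues, both as CPM + 1 on log axes, with open circles for plate 1 and filled squares for plate 2 and cells with no read at the value of 1. In SAG 48 cells lie off both axes, in GP 9, and in PF and COR 1 each.

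Cells with Sox9 were then split by whether they also had a SoxD gene. Col2a1 was read in 25 of the 29 SAG cells that had Sox9 together with Sox5 or Sox6 (86.2%, 68.3 to 96.1) and in 23 of the 34 with Sox9 alone (67.6%, 49.5 to 82.6), and these intervals overlapped. The order held on plate 2 (16 of 18 against 17 of 27) and not on plate 1 (9 of 11 against 6 of 7). Of 7 SAG cells with Sox5 or Sox6 but no Sox9, 3 had Col2a1. All 3 of Sox9, Sox5 and Sox6 were read in 6 SAG cells, every one of which had Col2a1 (100%, 54.1 to 100), and in 2 COR cells, 2 GP cells and no PF cell. In GP, 4 of 10 cells with Sox9 and a SoxD gene and 5 of 22 with Sox9 alone had Col2a1. In PF none of the 6 cells with Sox9 and a SoxD gene had Col2a1, nor did the 10 cells with a SoxD gene alone. COR had the most SoxD cells without Sox9, 19 of 74, against 7 in SAG, 9 in GP and 10 in PF.

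Gene by gene, Sox5 cells had Col2a1 in 17 of 20 cases in SAG (85%) against 59.1% of the other SAG cells, and Sox6 cells in 19 of 24 (79.2%) against 59.7%. Sox4 cells in SAG had it in 23 of 26 cases (88.5%, 69.8 to 97.6) against 55% (41.6 to 67.9), where the intervals did not overlap. By SAG plate, 16 of 19 and 7 of 7 cells with Sox4 had Col2a1, against 6 of 11 and 27 of 49 without. For Sox5 the counts were 10 of 11 and 7 of 9 against 12 of 19 and 27 of 47, and for Sox6 they were 6 of 8 and 13 of 16 against 16 of 22 and 21 of 40. The order was the same on both plates for all 3 genes, and for Sox6 on plate 1 it rested on 75% against 72.7%. In GP only 1 of the 12 cells with Sox11 had Col2a1 (8.33%), against 30.3% of the others.

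Co-detection of the 6 genes was otherwise limited. At least 1 of them was read in all but 39 of 87 PF cells, 10 of 86 SAG cells, 14 of 74 COR cells and 27 of 78 GP cells. The most read in 1 cell was 4. Sox5 was read in 25.4% of SAG cells with Sox9 and 17.4% of those without, and Sox6 in 30.2% and 21.7%. On SAG plates 1 and 2 the Sox5 shares were 44.4% against 25% and 17.8% against 9.09%, and the Sox6 shares were 27.8% against 25% and 31.1% against 18.2%. In COR, Sox6 was about as frequent with Sox9 (30.4%) as without it (33.3%), and 5 of the 8 COR cells with Sox5 also had Sox6. In PF no cell had both Sox5 and Sox6, although 5 and 11 cells had one of them. The SoxC pair met in 5 GP cells, 4 COR cells, 2 PF cells and 2 SAG cells. Sox11 and Sox9 met in 10 of the 12 GP cells with Sox11 and in all 5 SAG cells with Sox11. In PF and COR they met in 1 cell each. In GP, Sox11 was thus read in 31.3% of cells with Sox9 (16.1 to 50.01) against 4.35% of those without (0.531 to 14.8). The GP cells with Sox9 were also deeper, at a median of 511359 reads against 219047, and the part of depth was not tested.

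Other genes that SOX9 is known to act on were followed in a list of 19 cartilage genes, all of them in the data. In SAG, 18 of the 19 were read in a larger share of cells with Sox9 than of cells without. The median difference was 9.66 percentage points, where the median over all 7891 genes read in at least 5% of SAG cells was -3.93. Both medians, like those of the tissues and lists below, pool the plates and were not computed by plate. The SAG plates differed in their share of cells with Sox9 (60% and 80.4%) and in median genes per cell (2891.5 and 875). The pooled differences can also carry the difference between plates, and that part was not tested. Of the 19, 15 were higher on both plates and none lower on both. The 5 genes with the largest differences were Col2a1, Hapln1, Lect1, Chad and Papss2. Hapln1, a link protein that ties aggrecan to hyaluronan, was read in 71.4% of cells with Sox9 against 43.5%, and Lect1, which encodes chondromodulin, in 79.4% against 52.2%. Chad, a cartilage leucine-rich protein, and Papss2, which makes the donor for sulfation of proteoglycans, were each read in 42.9% against 21.7%. With the plates pooled, the 1 gene in the other direction was Col11a2, a chain of type XI collagen (47.6% against 56.5%). Within the plates its shares were close, at 77.8% against 75% on plate 1 and 35.6% against 36.4% on plate 2.

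In GP, 13 of the 19 genes were higher in cells with Sox9 and 6 lower, with a median difference of 4.08 points beside 7.20 for all genes. Acan was read in 81.3% of GP cells with Sox9 and 54.3% of those without, Fgfr3, a receptor that restrains chondrocyte growth, in 34.4% and 8.70%, Papss2 in 37.5% and 13%, Col11a1 in 96.9% and 78.3% and Hapln1 in 37.5% and 26.1%. The Fgfr3 difference came from plate 2, as no cell of GP plate 1 had a read. In PF, 11 genes were higher, 7 lower and 1 equal, with a median of 4.03 points beside 2.54 for all genes. The largest differences were for Col9a2, a chain of type IX collagen (30% against 5.97%), and Epyc, the small proteoglycan epiphycan (55% against 32.8%). Chad was lower (5% against 25.4%), and Hapln1 (25% against 11.9%) and Fgfr3 (30% against 22.4%) were higher. In COR, 8 were higher, 7 lower and 4 equal, with a median of 0 beside 2.81 for all genes. The largest differences were for Acan (60.9% against 41.2%), Hapln1 (39.1% against 27.5%), Col9a3 (0 of 23 against 7.84%), Wwp2, a ubiquitin ligase that hosts a cartilage microRNA (43.5% against 51%), and Col11a1 (78.3% against 84.3%). Hapln1 was thus the gene with a larger share in cells with Sox9 on all 8 plates, and the Acan share was larger on 6 of them, all but PF plate 1 and SAG plate 1.

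Osteoblast genes went the other way in SAG. All 8 of a list of Runx2, Sp7, Col1a1, Ibsp, Bglap, Alpl, Dmp1 and Ifitm5 were read in a smaller share of SAG cells with Sox9 than of those without. The median difference was -23.6 points, and 6 of the 8 were lower on both plates. Bglap, the gene of osteocalcin, was read in none of the 63 SAG cells with Sox9, which allows a share of up to 4.76%, and in 8 of 23 without. Ibsp, bone sialoprotein, was read in 1 of 63 and 8 of 23, and Sp7, the factor osterix, in 2 of 63 and 8 of 23. In GP 6 of the 8 were higher in cells with Sox9 and 2 lower, with a median of 3.33 points that lay below the 7.20 points of all genes. In PF 1 was higher and 7 lower (median -9.81, all genes 2.54), and in COR 4 were higher, 3 lower and 1 equal (median 1.62, all genes 2.81). In COR 15 of the 23 cells with Sox9 had Sp7 and 10 had Bglap, which are 65.2% and 43.5% of them, against 56.9% and 37.3% of the COR cells without Sox9.

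**Figure D5:**
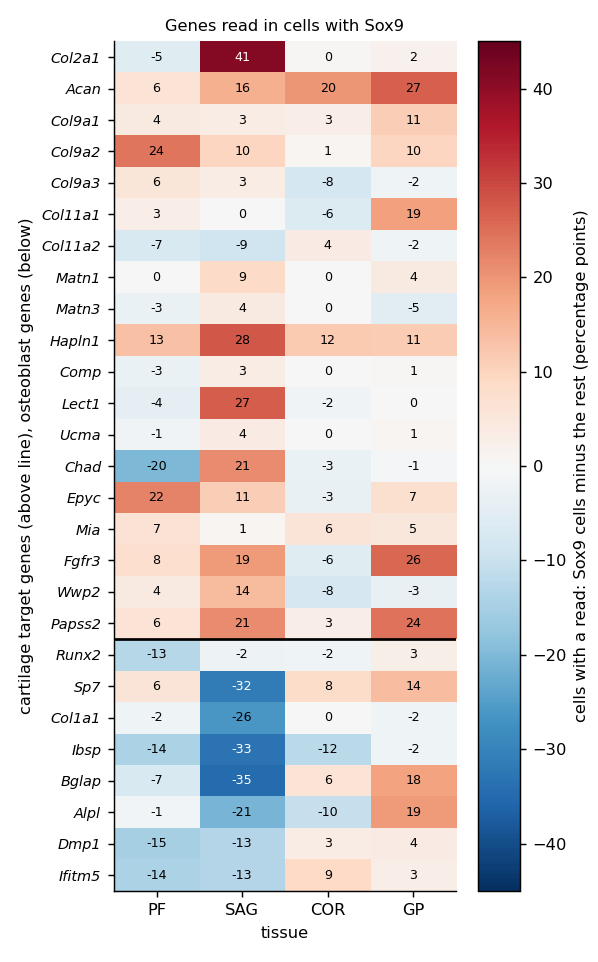
Difference in the share of cells with a read, cells with Sox9 minus the other cells of the tissue, in percentage points, for 19 cartilage genes (above the line) and 8 osteoblast genes (below it) in the 4 tissues, with red for higher and blue for lower. The SAG column holds 18 of 19 cartilage genes above 0 and all 8 osteoblast genes below 0.

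Markers of other cell types moved with Sox9 in some tissues, and their part in the differences above was not tested. The summed level of 6 chondrocyte markers was 16057 CPM in SAG cells with Sox9 and 1945 CPM in those without. It was 4476 and 1990 CPM in GP, 239 and 329 CPM in PF, and 316 and 226 CPM in COR, with Matn1 at 0 in PF and in COR as a whole. Without the 1 GP cell that had the most Col2a1 reads, the GP cells with Sox9 stood at 1067 CPM, below the rest, whereas SAG cells with Sox9 stood at 12936 CPM without theirs. The summed level of 4 tendon markers in SAG was 3576 CPM with Sox9 and 1391 CPM without, that of 4 fibroblast markers was 3975 and 14423 CPM, and that of 5 osteoblast markers was 7462 and 55795 CPM. Each of these 4 lists had the same order on both SAG plates, the chondrocyte markers at 23774 and 2689 CPM on plate 1 and 12524 and 771 CPM on plate 2. In GP the smooth muscle list stood at 270 CPM in cells with Sox9 and 3478 CPM in the rest. Any gene of that list was read in 18.8% and 19.6% of these cells. The same list stood at 261 and 1050 CPM in PF, 443 and 426 CPM in COR, and 0 and 3.85 CPM in SAG. The glial or neural crest list in GP stood at 4.78 CPM in cells with Sox9 and 772 CPM in the rest. Endothelial markers had no read in GP, with 4 of 4 at 0, and totalled at most 16.4 CPM in any suture. Haematopoietic markers totalled at most 12.5 CPM, in GP, with 1 to 2 of the 3 markers at 0 in each tissue.

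Between tissues, most of the same 19 cartilage genes were called higher in SAG than in PF or COR, as Sox9 was. All 19 passed the filter between PF and SAG, where 15 were called lower in PF and 1 higher (Epyc), with a median log2 ratio of -4.10 beside 0.29 over all genes tested. In SAG over COR 16 of 19 were called higher and none lower (median 3.91, all genes -0.29), and in SAG over GP 9 were higher and none lower (median 1.78, all genes -0.23). In PF over GP 1 of 18 was higher and 4 lower (median -1.61, all genes 0.10). In COR over GP none of 18 was higher and 8 were lower (median -2.26, all genes 0.07). In PF over COR 3 of 14 were higher and 1 lower (median 0.67, all genes 0.03). Without SAG plate 2 the counts were 1 higher and 15 lower in PF over SAG, 17 higher and 0 lower in SAG over COR, and 14 higher and 1 lower in SAG over GP. These counts are by the easier rule for a plate left out. No share of all genes called was computed without SAG plate 2 or with Rn45s counted. List counts under those settings therefore have no background of calls. The list's medians were then -3.64, 2.97 and 1.74, beside -0.003, 0.02 and 0.10 over all genes. With Rn45s counted, the counts were 1 and 7 of 18 in PF over SAG, 11 and 0 of 18 in SAG over COR, and 3 and 1 of 18 in SAG over GP. The medians were then -2.30, 1.89 and -0.16, beside 2.20, -2.24 and -2.09 for all genes. Col2a1 itself stood at 8092 CPM in SAG (9413 and 7214 on plates 1 and 2), 2349 CPM in GP (53.4 and 2831), 47.5 CPM in PF (1.18 and 58.7) and 2.06 CPM in COR (0.309 and 2.26). Both SAG plates were above the others, and GP plate 1 lay below PF plate 2, so the GP level came from GP plate 2. Of the 8 osteoblast genes, 6 were called higher in PF than in SAG and 1 lower (Runx2). In SAG 5 were called lower than in COR and 0 higher. Of all genes, 16.9% were called higher and 13.2% lower in PF than in SAG, and 18.9% lower in SAG than in COR. The list's median log2 ratio was 2.02 in PF over SAG and -2.00 in SAG over COR, beside 0.29 and -0.29 over all genes. Without SAG plate 2 the osteoblast counts were 5 higher and 0 lower in PF over SAG, and 4 lower in SAG over COR. Against GP, 5 of the 8 were called higher in PF and 4 in COR, and 0 lower. The shares of all genes called higher there were 7.67% and 6.33%. SAG over GP had 1 higher and 1 lower, as 13.3% and 18.3% of all genes were. The hypertrophic list gave 2 of 4 genes higher in PF than in SAG (Pth1r and Mef2c). In SAG 3 of 4 were lower than in COR (Pth1r, Mef2c and Spp1). Without SAG plate 2, Mef2c alone was called lower in SAG than in COR, and Mmp13 was called higher in SAG than in COR and than in GP. Col10a1, the type X collagen of hypertrophic cartilage, was read in 13 GP cells, in 1 COR cell and in no PF or SAG cell.

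Within SAG the plates differed in which of the Sox genes and targets they held. The log2 ratio of SAG plate 2 over plate 1 was 4.79 for Sox9, where the median over 9555 genes with at least 10 CPM on a plate was -0.90 and 3.94% of them were at or above the Sox9 value. It was 1.77 for Sox6, -1.26 for Sox5 and -2.53 for Sox4. Col2a1 differed little between the SAG plates, at -0.38. Fgfr3 (3.23), Chad (2.39), Hapln1 (1.97), Lect1 (1.96), Acan (1.80) and Papss2 (1.58) were higher on plate 2, as Sox9 was. Mia, a secreted cartilage protein, had no read on plate 2 and was read in 23 of 30 cells on plate 1. Col9a3 (-5.51), Matn3 (-4.63), Col9a1 (-4.15), Ucma (-4.02) and Comp (-3.63) were lower on plate 2. The plates also differed in Rn45s share and genes per cell, and these cannot be told apart from the plate itself.

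The genes whose levels were most like those of each Sox gene were taken over all 325 cells after removing plate means, among 7708 genes read in at least 10% of cells. For Sox9 they were Hapln1 (Pearson r 0.26), Fos (0.25) and Col2a1 (0.25). For Sox6 they were Hapln1 (0.29), Calr (0.27) and Lect1 (0.27), and for Sox5 Fam101a (0.29), Slc27a1 (0.26) and Lect1 (0.24). Col2a1 itself was number 30 for Sox5 and number 246 for Sox6. Genes like Sox4 included Chd6 (0.25) and Pex5 (0.24), and Sox11 was most like Dhcr7 (0.34), Nr4a2 (0.24) and Erp29 (0.23). For Sox8, with 6 cells, the leading genes were Tob2, Ston1 and Surf2, between 0.26 and 0.27. The median r over all genes lay between 0.00 and 0.03 for the 6 genes, and a weak correlation in counts this sparse is a description of these cells, which share plates and depth.

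The rest of the Sox family was nearly silent. Of 14 other Sox genes in the data, 8 had no read in any kept cell, and 3 were read in at least 5% of the cells of some tissue. Sox10, the SoxE factor of neural crest and Schwann cells, was read in 7 GP cells (8.97%), 2 COR cells and 1 cell each of PF and SAG. None of these 11 cells had a Sox9 read. Sox12, the remaining SoxC gene, was read in 10 COR cells (13.5%), 7 GP cells, 4 PF cells and no SAG cell, and Sox13, the remaining SoxD gene, in 4 GP cells (5.13%), 3 SAG cells, 2 COR cells and no PF cell.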

How the data were processed

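Single CD51+;CD200+ cells were sorted into 96-well plates and sequenced by the authors as paired full-length libraries, and the deposited tables hold whole-number read counts per gene and cell, 8 tables of 24015 genes, 1 for each plate. The submitters' processing notes name STAR 2.5.3a, HTSeq, Seurat 2.3.0, R 3.4.4 and genome build mm9. Annotation, counting mode and strand are not given in the sources used here, so reads of overlapping genes cannot be assigned with certainty. Counts have no molecular identifiers. Cells took their tissue and plate from the labels, and 1 cell whose description names another plate was kept on the plate of its title.

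Cells with at least 500 genes and 10000 reads were kept (325 of 360), Rn45s was left out of totals, and counts were summed per tissue and plate, divided by the total and given as CPM with exact Poisson intervals. Kept cells of a tissue held between 17212041 (SAG) and 32037308 (COR) reads other than Rn45s. Shares carry Clopper-Pearson intervals, and a count of 0 was read as up to 3 counts. For a share this limit lies below the upper end of the Clopper-Pearson interval, as with 8.82% against 10.3% for Sox5 on PF plate 1. Tissues were compared by log2 ratios with a pseudocount of 1 CPM, and the rule for a call was tried on simulated counts of the PF and COR plates only. That trial did not include GP or SAG, whose plate 2 stood apart, so it does not show how the rule behaves there. Analyses used Python 3.11.15, pandas 2.3.3, numpy 2.4.6, scipy 1.17.1 and matplotlib 3.10.9, and edgeR 4.0.16 in R 4.3.3 for TMM factors. Doublets were not called, as each well received 1 sorted cell. Sequences were those of GENCODE M1 transcripts, for each gene the transcript with the longest coding sequence, and coordinates were those of the GENCODE M1 annotation on mm9.

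Genes named in the text are the 6 members, Col2a1, the listed genes as counts, in each tissue the 5 cartilage genes whose share differed most between cells with and without Sox9, other Sox genes read in at least 5% of the cells of a tissue, and the 3 genes most correlated with each member. A few results under these rules are not reported here. List genes named beyond that rule (Col11a2 and the osteoblast genes in SAG cells, the genes of the SAG plates, the SoxC targets and the called list genes) were chosen after their values were seen. The members and lists were chosen with earlier results of these data known. Alternatives were totals with Rn45s, TMM factors, other pseudocounts, filters and detection limits, thinning, a mean over cells, and leaving out each plate, the top cell or the cell with the differing description. Leaving out the cell with the most Col2a1 reads from the marker sums was chosen after seeing the data.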

Additional observations from a re-analysis of the deposited data

Results flagged for a closer look

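The share of cells with a Col2a1 read was higher in cells with Sox9 than in those without by 41.4 percentage points in SAG, and on both of its plates (25 and 64.2 points). In PF it was lower in cells with Sox9 by a difference of -5.45 points, again on both plates (-3.45 and -9.12). The sign was thus opposite in SAG and PF on each of their plates, and the difference between them was not tested. On PF plate 1 the sign rested on 0 of 5 cells with Sox9 against 1 of 29 without. With 1 Col2a1 cell, that plate could show the other sign only if this cell had Sox9. The difference was also below 0 on GP plate 1 (-21.4) and COR plate 1 (-8.33), and above 0 on GP plate 2 (6.49) and COR plate 2 (2.70). In PF these values rest on 1 of 20 cells with Sox9 and 7 of 67 without, and the interval for the former (0.127% to 24.9%) contains the latter share.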

How the results depend on the processing

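No paired analysis was possible because plate numbers do not tie a plate of one tissue to a plate of another and each tissue is 1 sample. Leaving out each plate in turn gave Sox9 log2 ratios of -6.97 to -1.54 for PF over SAG, 3.13 to 7.92 for SAG over COR, 2.02 to 6.82 for SAG over GP, 0.24 to 1.79 for PF over COR, -0.86 to 0.68 for PF over GP and -1.29 to -0.44 for COR over GP. A stricter filter of 1500 genes and 50000 reads removed all of SAG plate 2 and gave -1.45, 3.13 and 2.01 for the first 3. The mean over cells of the log2 level gave -0.14 for PF over COR, -0.64 for PF over GP and -0.50 for COR over GP, and for the first and second of these the sign changed although neither was called. With Rn45s counted, 1, 1 and 2 Sox genes were called for PF and SAG, SAG and COR, and SAG and GP, instead of 4 each, and Sox5 (0.57 for PF over SAG, -0.042 for SAG over GP) and Sox6 (0.23 for PF over SAG, -0.28 for SAG over COR) changed sign, as the median of all genes moved by 1.71, -1.71 and -1.63. TMM factors moved that median by -0.24 for PF over SAG, 0.22 for SAG over COR and 0.15 for SAG over GP and left the counts of called Sox genes as they were. The share of all genes called was not computed with Rn45s counted or with TMM factors.

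The share of Sox9 cells with Col2a1 ran without each plate from 73.3% to 83.3% in SAG, 0 to 34.6% in GP, 0 to 6.67% in PF and 0 to 5.26% in COR, and in PF it was 0 when 5 or 10 reads were required. Among SAG cells without Sox9 it ran from 9.09% to 58.3%, and under the stricter filter the SAG shares were 82.4% with Sox9 and 63.6% without. Alternatives were sorted by rules that differed with the kind of result. To stay, a ratio had to move by no more than the standard deviation of its plate-to-plate ratios, and a share had to remain in its interval. A count of calls had to change by no more than a set factor. For Sox9 in PF over SAG that standard deviation was 2.91 on the log2 scale, a wide allowance. Of 125 alternatives for the main results 105 stayed by these rules and 20 moved. Of 584 for the others 482 stayed, 98 moved and 4 that had been called changed sign. Ratios that had not been called changed sign in further cases. The cause of these changes was not tested. With 1 sample per tissue and 16 to 58 cells per plate, differences between animals could not be measured, and genes read in few cells, above all Sox8, rest on single cells.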
